A study of Canis lupus familiaris with 21 samples.

Results

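MDCK-II is an epithelial line from dog kidney. Two-colour arrays of MDCK-II cells overexpressing Zeb1 or Zeb2 were compared, 3 value-table columns for each factor and 6 of the 21 columns of the series. The columns were chosen by sample title. In each, the Cy5 channel held RNA of the overexpressing cells and the Cy3 channel RNA of MDCK-II cells with an empty pLKO vector. Every value is therefore a log2(Cy5/Cy3) ratio of a line over control. The other 15 columns belong to cells overexpressing E47, Snail1, Snail2, Twist1 or Twist2 against the same kind of control. Cells were selected with G418 or puromycin and clones were isolated with cloning rings. The arrays of a line are called biological replicates, but nothing says that they came from separate clones or cultures. The p-values then measure only how far these arrays scatter, and some of that scatter may be technical.

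Zeb1 and Zeb2 are paralogues, large DNA-binding proteins with a zinc-finger cluster near each end and a homeodomain-like stretch between them. Both bind E-box sequences and are best known for repressing E-cadherin and other junction genes; cells that go through this epithelial-mesenchymal transition lose their contacts and become motile. Both repress genes of the miR-200 family, and those microRNAs target the Zeb1 and Zeb2 transcripts in turn. The question asked of these columns was where the lines overexpressing either paralogue differ, and in which way.

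The labels conflict in several respects. The extraction protocol speaks of tumours and of a Cy3 pool of all samples, while the channel labels name the empty-vector control, and the channel labels are followed here. Of the 21 columns, 15 equalled the log ratios of a scanner file at 97.7% to 97.8% of the tested spots, and in 0 of the 15 was that file recorded for the same sample. Among the Zeb columns 4 equalled a file. The column titled Zeb1 replicate 1 equalled the file recorded for Zeb2 replicate 1, and the column titled Zeb2 replicate 1 equalled the file recorded for Zeb1 replicate 1. Zeb1 replicates 2 and 3 equalled each other's files. All 4 files came from a single slide. Zeb2 replicates 2 and 3 equalled no file, so their scale and direction were assumed to be those of the other columns. Both are recorded for another slide.

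Spots are given by the ID that the files print, with no gene name. The grid that supplies IDs and names carried another design number than the slide in 21 of 21 files. Over 834 pairs of spots listed under a common transcript name, mean Cy3 intensities correlated across pairs with r = -0.0633. The levels of Zeb1 and Zeb2 themselves, and markers of epithelial or mesenchymal cells, could therefore not be read, and the labels could not be checked against the overexpressed gene. Of 42034 spots, 30183 passed the filter on dim spots, being flagged above background in Cy5 or Cy3 in at least 3 of the 21 files, and were tested. In the 4 files equal to Zeb columns, 59.0% to 63.2% of all spots were well above background in Cy5 and 50.5% to 58.4% in Cy3. A ratio of exactly 0, which the files also hold, took up 1.70% to 5.83% of the tested spots in the 6 columns.

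Zeb2 replicate 1 stood apart from its line. Replicates 2 and 3 of Zeb2 correlated with each other across tested spots at r = 0.927, but with replicate 1 at 0.475 and 0.494. Replicate 1 correlated with the Zeb1 columns at 0.535, 0.351 and 0.516, and its nearest column of all was the second of Snail1 at 0.592. Replicates 2 and 3 correlated with the Twist2 columns at a mean of 0.751 and 0.776, and with E47 at 0.705 and 0.715. Their means were 0.689 and 0.706 with Twist1, 0.664 and 0.699 with Snail2, and 0.325 and 0.329 with Snail1. All but the Snail1 means lay above the values with replicate 1, and which columns carry the Zeb2 profile was not tested. The 3 Zeb1 columns correlated with each other at 0.669 to 0.732. All columns share the control RNA, spots are not independent replicates, and these values are descriptions of likeness. Replicate 1 was also less spread: 16.4% of its tested spots lay at least 2-fold from control, against 14.2% to 18.4% in the Zeb1 columns and 40.4% and 44.7% in Zeb2 replicates 2 and 3. The median distance of replicate 1 was 0.466 log2 units from the Zeb1 mean and 0.687 from the mean of the other Zeb2 columns. Each result is therefore given with and without this column. Without it, all Zeb1 columns lie on a slide of their own and the remaining Zeb2 columns are recorded on another, so that slide and line cannot be told apart.

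**Figure D1:**
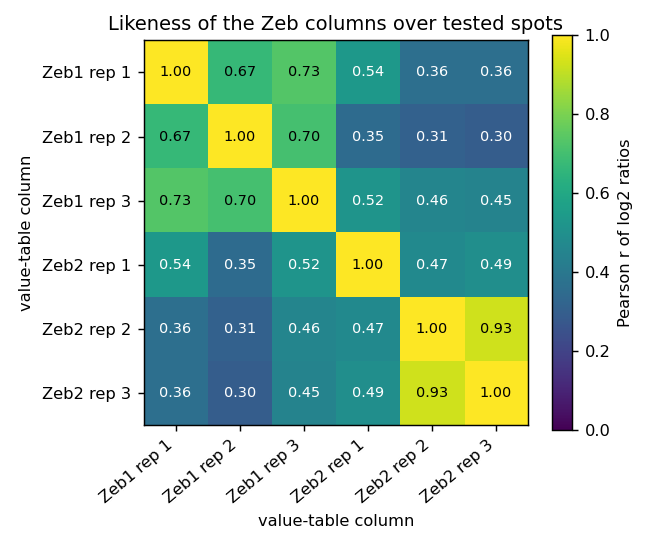
Pearson r of log2 ratios over the 30183 tested spots for each pair of the 6 Zeb columns; both axes list the columns and the colour gives r from 0 to 1. Zeb2 replicates 2 and 3 are alike at 0.927, and Zeb2 replicate 1 is about as far from them as from the Zeb1 columns.

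Zeb1 and Zeb2 differed at 6327 of 30183 tested spots, 3229 higher and 3098 lower in Zeb1. A spot was called where limma's adjusted p was under 0.05 and the lines lay at least 2-fold apart, which is 1 log2 unit. The called share was 21% of the tested spots, 10.7% higher and 10.3% lower. Of the 8708 spots with an adjusted p under 0.05, 2381 were less than 2-fold apart, and 2016 of the 8343 spots that were at least 2-fold apart did not pass the adjusted p. Differences of 4-fold or more were called at 1131 spots, 633 higher and 498 lower in Zeb1. The 3 Zeb1 values and the 3 Zeb2 values did not overlap at 11403 of the tested spots, 37.8%, with Zeb1 above Zeb2 at 19.8% and below it at 18%. At 5262 spots (17.4%) they did not overlap and the difference was called. Without Zeb2 replicate 1 the called spots numbered 10202 (33.8%), 5464 higher (18.1%) and 4738 lower (15.7%) in Zeb1.

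This count rests on the other lines and on the Zeb2 pair. The spread was estimated over all 21 columns. In a limma fit of the 6 Zeb columns alone 0 spots passed, with 9760 at an unadjusted p under 0.05 and a smallest adjusted p of 0.0633. Within the slide that holds the Zeb1 columns and Zeb2 replicate 1, limma called 0 spots, with 6629 at an unadjusted p under 0.05, from 3 columns against 1. With slide as a random block over the 6 columns 0 were called (7361 at an unadjusted p under 0.05), and with slide as a fixed block 194, of which 49 were also among the 6327 with equal sign. Zeb2 replicate 1 alone against the 3 Zeb1 columns, with the spread of the other lines, gave 1046 spots, 487 of them shared in sign and call with the 6327. With slide as a fixed block, within the slide and with Zeb2 replicate 1 alone, the Zeb2 mean rests on replicate 1 only. The estimated difference is then the same in these settings, which differ in the spread used and are not separate checks. The scanner files taken by their recorded samples gave 1 call, and exchanging the titles of Zeb1 and Zeb2 replicate 1, as the records have them, gave 6. The count was 3994 without Zeb1 replicate 2, 3832 without Zeb2 replicate 2 and 3187 without Zeb2 replicate 3.

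Each column was left out in turn and then read at the spots called without it, so that it had no part in the call. The place of the left-out column was measured from 0 at the mean of the other line to 1 at the mean of its own. The Zeb1 columns lay nearer their own line at 90.3%, 94.2% and 92.0% of such spots. Zeb2 replicates 2 and 3 did so at 94.4% and 96.1%. Zeb2 replicate 1 lay nearer its own line at 27.1% of 10202 spots, with a median place of 0.267 (quartiles -0.02 and 0.527). Zeb2 replicate 1 shares its slide with the Zeb1 columns. Every other Zeb column shares a slide with columns of its own line, as far as the slide of Zeb2 replicates 2 and 3 is recorded. Nearness to the own line can therefore not be told apart from nearness within a slide, and the part of the slide in these places was not tested.

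**Figure D2:**
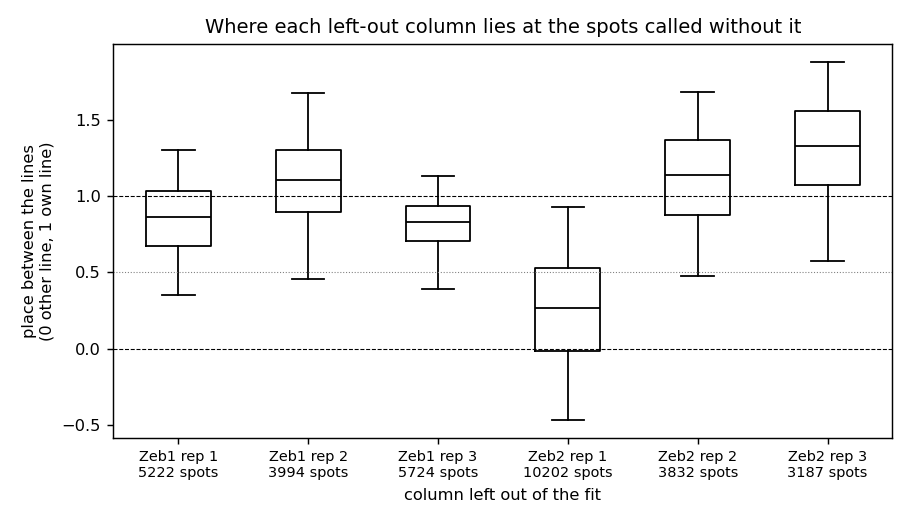
Place of each left-out column between the mean of the other line (0) and that of its own line (1) at the spots called without it; boxes run from the 25th to the 75th percentile with the median as a line, whiskers from the 5th to the 95th. The medians are 0.832 to 1.33 for 5 columns and 0.267 for Zeb2 replicate 1.

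The called spots were split by what each line did against control, with the same call rule for each line mean against 0. In Zeb1, 3094 spots were called against control (10.3%), 1556 raised (5.16%) and 1538 lowered (5.1%). In Zeb2 there were 9152 (30.3%), 4436 raised (14.7%) and 4716 lowered (15.6%). With Zeb2 replicate 1 left out, the shares were 40.8% in Zeb2, 19.2% raised and 21.6% lowered, and 10.7% in Zeb1, 5.43% raised and 5.31% lowered. These tests leave out the control's own spread, and both lines share that control. The standard deviation over spots of the line mean was 0.741 for Zeb1, 1.06 for Zeb2 and 1.33 for the mean of Zeb2 replicates 2 and 3. The Zeb2-only set, changed in Zeb2 and not called in Zeb1, held 3882 spots, 28.1% of those that differed in its raised and 33.2% in its lowered part. The next was a set of 1776 (28.1%) called in the difference but in neither line. Zeb1-only spots numbered 461, spots changed alike but in unequal size 147, and spots changed oppositely 61. These sizes changed with the scale of the columns. Over tested spots the standard deviation was 0.798 to 0.877 in the Zeb1 columns, 0.871 in Zeb2 replicate 1, and 1.3 and 1.41 in Zeb2 replicates 2 and 3. With all columns scaled to equal spread, meaning an equal median absolute ratio, 2452 spots were called in Zeb1 only and 2635 in Zeb2 only. Against control 8477 and 8457 were called in Zeb1 and Zeb2. Such scaling favours like counts against control in advance, and a scaled value of 1 no longer stands for 2-fold.

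**Figure D3:**
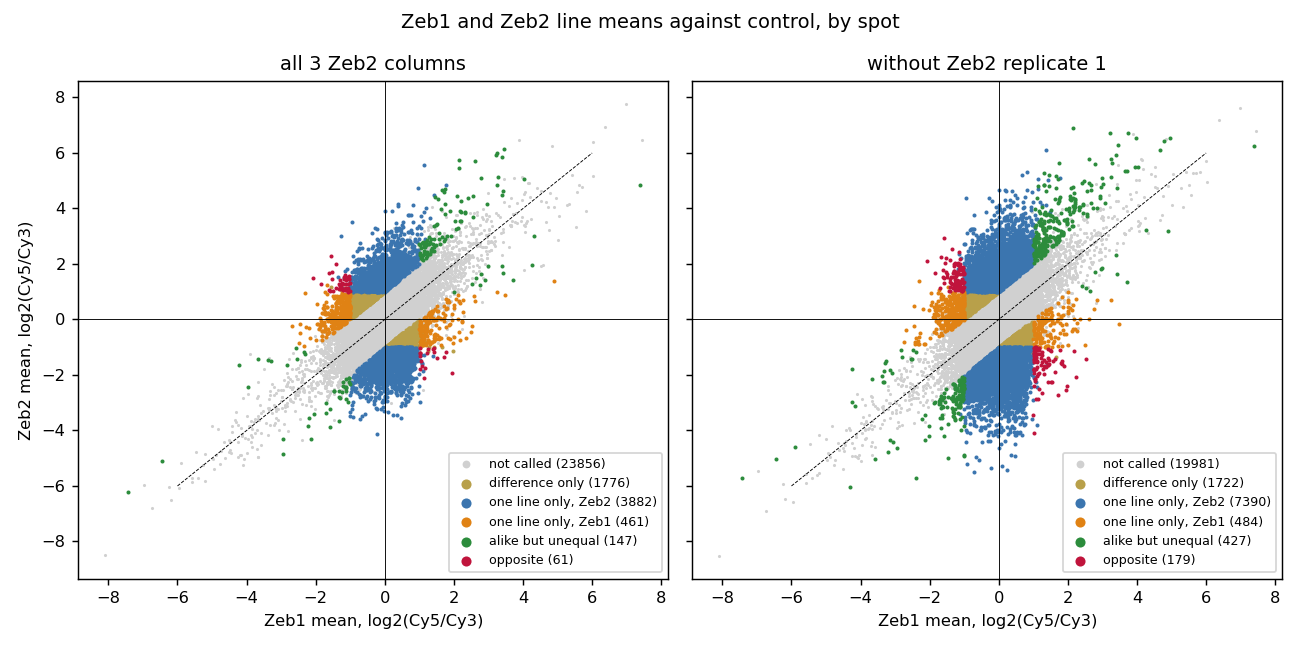
Zeb1 mean (horizontal) against Zeb2 mean (vertical) in log2(Cy5/Cy3) for each tested spot, with all Zeb2 columns at left and without Zeb2 replicate 1 at right; colours mark the sets, with their counts, and the dashed line marks equal means. Points spread further along the vertical axis, and the Zeb2-only set grows from 3882 to 7390 spots without Zeb2 replicate 1.

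Spots changed oppositely to control were few under the 2-fold rule, 61 in all, against 649 with no minimum fold. Of the 61, 18 (0.0596% of tested spots) were raised in Zeb1 and lowered in Zeb2, with median line means of 1.19 and -1.26. The other 43 (0.142%) were lowered in Zeb1 and raised in Zeb2, with medians of -1.20 and 1.27. Without Zeb2 replicate 1 there were 179 such spots, 81 and 98, and 59 of the 61 stayed in their set, 18 of 18 and 41 of 43. Replicate 1 had a median place of 0.267 between the lines at the spots called without it. Leaving it out mostly widens the difference, so this overlap was favoured in advance. The count was 26 without Zeb1 replicate 2, 28 without Zeb2 replicate 2 and 26 without Zeb2 replicate 3. In the 81 spots, Zeb2 replicate 1, which was not used to find them, had the sign of the other Zeb2 columns at 20 (24.7%), and in the 98 at 46 (46.9%). At most of these spots Zeb2 replicate 1 did not lie on the side of control where the other Zeb2 columns lay. With all columns scaled to equal spread the opposite spots numbered 324, of which 11 of the 18 and 28 of the 43 were part.

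Spot A_11_P000006333, at row 284 and column 26 of the grid, had log2 ratios of 0.72, 1.70 and 0.61 in the Zeb1 columns and -0.63, -2.33 and -2.44 in the Zeb2 columns. The groups did not overlap, and Zeb2 replicate 1 was the least lowered of its line. Zeb1 exceeded Zeb2 by 2.81 (SE 0.47, 95% interval 1.82 to 3.80, limma adjusted p = 0.000966), and by 3.39 without that column. The processed Cy5 signals were 16169, 53845 and 15264 in the files equal to the Zeb1 columns and 7318 in that of Zeb2 replicate 1, with Cy3 signals of 9832, 16611, 10003 and 11313. Both channels were brightest in the file of Zeb1 replicate 2, and Cy5 was dimmest in that of Zeb2 replicate 1. The other named spot of this kind, A_11_P0000040469, had 0.86, 1.77 and 0.90 in Zeb1 and -0.24, -2.38 and -2.61 in Zeb2, a difference of 2.92 (SE 0.56, limma adjusted p = 0.00195). Its table values equalled those that the files hold at another spot of the same listed transcript name, A_11_P0000027521, which was well above background in both channels in 9 of 21 files.

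Lowered in Zeb1 and raised in Zeb2 was spot A_11_P0000030962 (row 477, column 31), with -1.12, -1.34 and -1.08 in Zeb1 and 0.51, 1.98 and 2.07 in Zeb2. The difference was -2.70 (SE 0.31, 95% interval -3.36 to -2.04, limma adjusted p = 0.000217). The Zeb1 values were tight (SD 0.14, n = 3), while those of Zeb2 spread (SD 0.87, n = 3) because replicate 1 lay below the others. Spot A_11_P0000030981 had -1.55, -1.16 and -0.82 in Zeb1 and 0.38, 2.02 and 1.93 in Zeb2, a difference of -2.62 (SE 0.33). Spot A_11_P0000019986 had -0.51, -1.63 and -0.97 in Zeb1 and 0.54, 1.93 and 1.86 in Zeb2, a difference of -2.48 (SE 0.32). Its lowest ratio, in Zeb1 replicate 2, went with a Cy3 signal of 1086, against 190 and 232 in the other Zeb1 files. The Cy5 signal was 352 there, against 133 and 118. At these 3 spots no column of Zeb1 was above 0 and no column of Zeb2 below it. The means of E47, Snail2, Twist1 and Twist2 at the first of them were 3.71, 3.11, 2.39 and 2.84, on the side of Zeb2, and that of Snail1 was -0.89.

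Spots changed in Zeb1 only numbered 461, 148 raised (0.49% of tested spots) and 313 lowered (1.04%). The medians of the line means were 1.32 in Zeb1 and -0.247 in Zeb2 for the raised, and -1.27 and 0.200 for the lowered. In the other line the mean lay within 0.5 log2 units of control at 84 of the 148 and 231 of the 313, and it had the opposite sign at 102 and 216. Not called is not the same as unchanged: Zeb2 had a limma adjusted p under 0.05 at less than 2-fold at 21 and 58 of these spots, with the opposite sign at 15 and 50 of them. Without Zeb2 replicate 1 the sets held 154 and 330 spots, with 92 and 250 in common. Without Zeb1 replicate 2 the total was 292, and with columns scaled to equal spread it was 2452, which took in 145 of the 148 and 307 of the 313.

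Spot A_11_P00000764 (row 259, column 33) was the most raised of those named, with 2.06, 2.41 and 2.19 in Zeb1 and 0.39, -0.09 and -0.60 in Zeb2. Zeb1 exceeded Zeb2 by 2.32 (SE 0.40, 95% interval 1.48 to 3.16, limma adjusted p = 0.00109). All Zeb1 columns stood at least 4-fold above control and no Zeb2 column reached 2-fold in either direction. The processed Cy5 signals were 10689, 17451 and 15666 in the files equal to the Zeb1 columns and 4739 in that of Zeb2 replicate 1, against Cy3 signals of 2560, 3283, 3445 and 3607. The Snail1 mean was 1.66 there, and those of E47, Snail2, Twist1 and Twist2 were -1.29, -2.35, -2.17 and -1.22. Spot A_11_P000006468 had 1.56, 1.90 and 1.01 in Zeb1 and 0.56, -0.74 and -0.46 in Zeb2, a difference of 1.70 (SE 0.58, limma adjusted p = 0.0359). The third by size, A_11_P0000022579, had 1.22, 1.35 and 0.81 in Zeb1 and -0.10, -1.12 and 0.05 in Zeb2, a difference of 1.52 (SE 0.44, limma adjusted p = 0.0168). Its table values equalled those that the files hold at spot A_11_P0000022580, which was well above background in both channels in 0 of 21 files.

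Lowered in Zeb1 only were spot A_11_P0000034905 (-1.28, -2.09 and -1.69 in Zeb1, -0.48, 0.82 and 1.00 in Zeb2), spot A_11_P0000023705 (-1.17, -1.72 and -1.12, against 0.44, 0.86 and 1.07) and spot A_11_P0000019864 (-1.73, -0.99 and -1.27, against 0.65, 0.79 and 0.70). Their differences were -2.13 (SE 0.41), -2.13 (SE 0.22) and -2.05 (SE 0.24), with limma adjusted p of 0.00207, 9.76e-05 and 0.000217. At A_11_P0000034905 the Cy3 signals were 802, 654 and 621 in the Zeb1 files and 327 in that of Zeb2 replicate 1, with Cy5 signals of 331, 154, 192 and 234, so there also the control channel moved with the ratio. At spots A_11_P0000023705 and A_11_P0000019864 Zeb2 replicate 1 lay on the same side of control as the rest of its line. There Zeb2 was above control by 0.79 and 0.72, under 2-fold, with limma adjusted p of 0.000412 and 0.00177.

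Spots changed in Zeb2 only made up most of the difference in the fit of all columns as deposited. There were 1779 raised (5.89% of tested spots) and 2103 lowered (6.97%) in Zeb2. In the raised set the median was 1.53 in Zeb2 and -0.01 in Zeb1, and in the lowered set -1.47 and 0.231. The Zeb1 mean lay within 0.5 log2 units of control at 1337 and 1523 of them. By column, the medians of the raised set were 0.714, 1.96 and 1.98 in Zeb2 replicates 1 to 3 and 0.00, -0.124 and 0.115 in the Zeb1 columns. For the lowered set they were -0.618, -1.74 and -2.09 in Zeb2 and 0.115, 0.389 and 0.115 in Zeb1. Without Zeb2 replicate 1 the sets held 3237 and 4153 spots, 7390 in all. Among them were 1719 of the 1779 and 2049 of the 2103, an overlap likewise favoured in advance. At these 3237 and 4153 spots, replicate 1 had the sign of the other Zeb2 columns at 73.0% and 77.6%, and it was itself at least 2-fold from control in that direction at 16.7% and 8.93%. The total was 2149 of 3832 called spots without Zeb2 replicate 2 and 1590 of 3187 without Zeb2 replicate 3. It was 2635 of 7972 with columns scaled to equal spread. In the last 2 of these settings the set no longer made up most of the difference.

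The most lowered of those named was spot A_11_P0000010116 (row 33, column 22), with -0.67, -3.84 and -4.53 in Zeb2 and 0.75, 0.24 and 0.54 in Zeb1. The difference was 3.52 (SE 0.825, 95% interval 1.78 to 5.26, limma adjusted p = 0.00565), and 4.69 without replicate 1. Its processed Cy5 signals were 1118, 730 and 899 in the Zeb1 files and 1419 in the file of Zeb2 replicate 1, with Cy3 signals of 667, 620, 620 and 2262. The lower ratio of Zeb2 replicate 1 thus went with a higher Cy3 signal and not with a lower Cy5 signal. Spot A_11_P0000035751 had -1.08, -3.38 and -3.63 in Zeb2 and 0.81, 0.85 and 0.68 in Zeb1, a difference of 3.48 (SE 0.79, limma adjusted p = 0.00463). Its Zeb1 columns were close (SD 0.09, n = 3), and all 3 Zeb2 columns were at least 2-fold below control. Its processed Cy5 signals were 2997, 1435 and 4767 in the Zeb1 files and 4173 in the file of Zeb2 replicate 1, with Cy3 signals of 1714, 798, 2969 and 8823. Here too the Cy3 signal was highest on the array of Zeb2 replicate 1, so the control channel moved with the difference. Spot A_11_P0000013657 had -0.91, -3.07 and -4.32 in Zeb2 and 0.12, 1.58 and 0.35 in Zeb1, a difference of 3.45 (SE 0.66, limma adjusted p = 0.00189). At these 3 spots the means of E47, Snail2, Twist1 and Twist2 ran from -4.10 to -2.21, while Snail1 lay between -0.04 and 0.03.

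Among those raised, spot A_11_P000009085 had 0.56, 3.06 and 2.88 in Zeb2 and -0.55, -0.81 and -0.13 in Zeb1, a difference of -2.66 (SE 0.46, limma adjusted p = 0.00109). Spot A_11_P0000032715 had 0.31, 2.33 and 2.76 in Zeb2 and -0.26, -1.84 and -0.21 in Zeb1, a difference of -2.57 (SE 0.59, limma adjusted p = 0.00528). One Zeb1 column, replicate 2, lay well below the others there. Its file had a Cy3 signal of 1400, against 135 and 201 in the other Zeb1 files, and a Cy5 signal of 392, against 113 and 173. The lower ratio thus went with a higher Cy3 signal and not with a lower Cy5 signal. Spot A_11_P0000033458 had 1.19, 3.49 and 3.04 in Zeb2 and -0.24, -0.09 and -0.30 in Zeb1, a difference of -2.78 (SE 0.44, limma adjusted p = 0.000747). Its table values equalled those held in the files at spot A_11_P0000014596, well above background in both channels in 11 of 21 files.

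**Figure D4:**
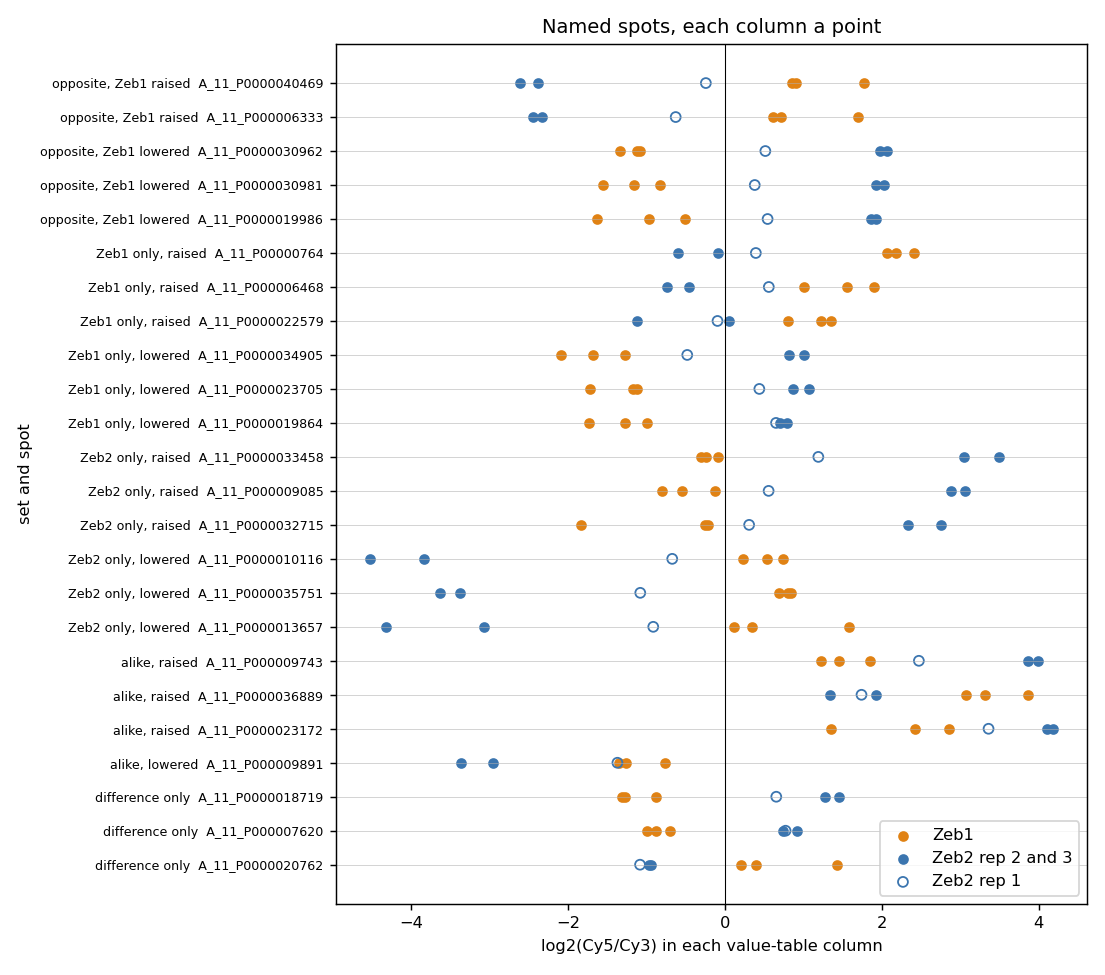
Log2(Cy5/Cy3) of the 24 named spots in each of the 6 columns, 1 point per column, grouped by set on the vertical axis. Zeb1 and Zeb2 points do not overlap at any of these spots, which the choice of spots required, and the open circle of Zeb2 replicate 1 is the Zeb2 column nearest the Zeb1 mean at 20 of the 24.

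Spots changed in the same direction in both lines were mostly larger in Zeb2 as deposited, an order that turned when the columns were given equal spread. There were 1063 spots raised and 753 lowered in both lines, against a control that they share, and the Zeb2 mean was the larger at 65.0% and 62.3% of them. The difference was called at 105 of the 1063 (9.88%) and 42 of the 753 (5.58%). Of the 105, 92 were raised more in Zeb2 and 13 more in Zeb1, with median line means of 2.81 in Zeb2 and 1.63 in Zeb1. Of the 42, 30 were lowered more in Zeb2 and 12 more in Zeb1, with medians of -2.57 and -1.58. Without Zeb2 replicate 1 the sets held 282 and 145, of which 270 and 124 were larger in Zeb2. The total of 147 was 81, 71 and 92 without Zeb1 replicates 1, 2 and 3, and 427, 77 and 62 without Zeb2 replicates 1, 2 and 3. After the columns were scaled to equal spread the total was 542: 304 of 331 raised and 198 of 211 lowered spots then had the larger change in Zeb1. The order of size between the lines thus depended on the scaling.

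Spot A_11_P000009743 (row 235, column 13) had 1.46, 1.23 and 1.84 in Zeb1 and 2.47, 3.86 and 3.995 in Zeb2, a difference of -1.93 (SE 0.34, limma adjusted p = 0.00126). Spot A_11_P0000023172 had 2.86, 2.43 and 1.35 in Zeb1 and 3.36, 4.19 and 4.11 in Zeb2, a difference of -1.68 (SE 0.40, limma adjusted p = 0.00621). Both were raised in every column, and more in Zeb2. The reverse order was seen at spot A_11_P0000036889 (row 165, column 82), with 3.08, 3.86 and 3.32 in Zeb1 and 1.74, 1.92 and 1.33 in Zeb2, a difference of 1.76 (SE 0.24, 95% interval 1.25 to 2.27, limma adjusted p = 0.000395). Here Zeb2 replicate 1 lay among the other Zeb2 columns, and the difference was 1.79 without it. The Snail1 mean was 3.62 at that spot, against 1.09 in E47, 0.46 in Snail2, -0.625 in Twist1 and 0.72 in Twist2. Of the lowered spots, A_11_P000009891 had -1.27, -0.77 and -1.36 in Zeb1 and -1.37, -2.96 and -3.36 in Zeb2, a difference of 1.43 (SE 0.38, limma adjusted p = 0.0106), with Zeb2 replicate 1 at the level of Zeb1.

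The 1776 spots called in the difference but in neither line lay on opposite sides of control in 1776 cases, which follows from the rule for nearly all of them, since 1746 were under 2-fold in both lines. Zeb1 was the higher at 917 and the lower at 859. When Zeb2 replicate 1 was left out, the set held 1722 spots, 869 of them in common. Spot A_11_P000007620 (row 475, column 3) had -0.88, -0.997 and -0.70 in Zeb1 and 0.77, 0.74 and 0.92 in Zeb2, a difference of -1.67 (SE 0.21, limma adjusted p = 0.00029). Spot A_11_P0000020762 had 0.21, 1.43 and 0.39 in Zeb1 and -1.08, -0.96 and -0.94 in Zeb2, a difference of 1.67 (SE 0.32, limma adjusted p = 0.00207). At both, Zeb2 replicate 1 lay with the other Zeb2 columns. Here too, not called is not the same as unchanged, since both line means were under 2-fold but passed the adjusted p. The limma adjusted p against control was 0.000398 in Zeb1 and 0.000257 in Zeb2 at A_11_P000007620. At A_11_P0000020762 it was 0.0411 and 0.00166. Spot A_11_P0000018719 had -1.27, -1.31 and -0.88 in Zeb1 and 0.65, 1.45 and 1.27 in Zeb2, with a difference of -2.28 (SE 0.82, limma adjusted p = 0.0445). This wide error uses the spread shared by all 7 lines. The Zeb columns themselves had SD 0.24 in Zeb1 and 0.42 in Zeb2 (n = 3 each). Its line means of -1.16 and 1.13 were past 2-fold, but with limma adjusted p of 0.158 and 0.109 against control.

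**Figure D5:**
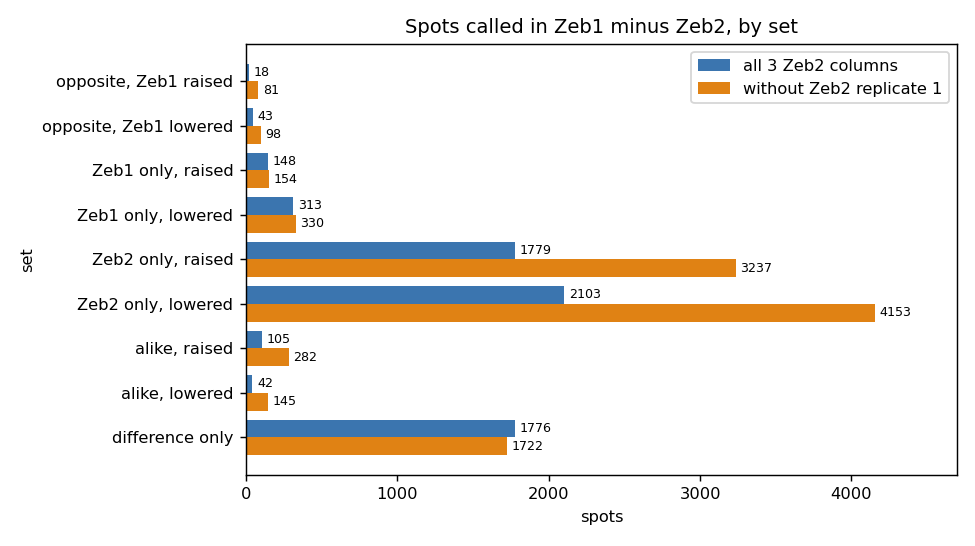
Number of spots in each set (horizontal axis) with all Zeb2 columns and without Zeb2 replicate 1. The sets changed in Zeb2 only hold 1779 and 2103 spots and rise to 3237 and 4153, while those changed in Zeb1 only move from 148 and 313 to 154 and 330.

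The sets differed in Cy3 brightness, which is no independent trait, since Cy3 is the denominator of every ratio that the split used. The median log2 Cy3 signal, averaged over the 21 files, was 8.75 over all tested spots. It was 6.71 in the set raised in Zeb1 only, 8.29 in the set raised in Zeb2 only, 6.80 in the set raised alike and 7.32 in the set lowered in Zeb1 and raised in Zeb2. It was 9.32 in the set lowered in Zeb1 only, 9.69 in the set lowered in Zeb2 only and 10.4 in the set lowered alike, but 8.28 in the set raised in Zeb1 and lowered in Zeb2. The part of brightness in the sets was not tested. Well above background in both channels in all 21 files were 43.3% of the tested spots, 50.8% of those lowered in Zeb1 only, 50.9% of those raised in Zeb2 only, 12.8% of those raised in Zeb1 only and 11.1% of the 18 opposite spots raised in Zeb1. Over the grid, 49.4% of tested spots and 50.5% of called spots lay on the left side. For the opposite sets the shares were 66.7% of 18 and 69.8% of 43.

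The other lines were read at the same spots, each against the control they share. At the spots lowered in Zeb2 only, the median was -2.01 in E47, -1.93 in Snail2, -1.55 in Twist1 and -2.04 in Twist2, and -0.02 in Snail1. At those raised in Zeb2 only it was 2.03, 1.77, 1.60 and 2.08 in the same order, and 0.105 in Snail1. At the spots raised in Zeb1 only, Snail1 had a median of 0.736 and the other 4 lines medians of -0.583 to -0.423. At those lowered in Zeb1 only, Snail1 had -0.776 and the others 0.137 to 1.13. In both Zeb1-only sets the Snail1 median thus had the sign of Zeb1, and the medians of E47, Snail2, Twist1 and Twist2 the sign of Zeb2. The difference of Snail1 and Snail2 removes the control only as far as it was equal on all arrays, which was not tested. In it, 93.6% of the 3229 spots higher in Zeb1 were higher in Snail1, with a median of 1.54. Of the 3098 lower ones 5.62% were, with a median of -1.53. Over all tested spots 50.4% were higher in Snail1. For Twist1 minus Twist2 the shares were 72.8% and 27.4%, with medians of 0.422 and -0.352, against 46.9% of all tested spots. These are descriptions over spots, and the Snail1 columns, like Zeb2 replicates 2 and 3, equalled no scanner file.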

How the data were processed

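RNA was measured on 21 two-colour Agilent arrays, 3 for each of 7 lines. The deposited log10 ratios of Cy5 over Cy3 came from Agilent Feature Extraction 10.7.1.1 per the file headers (10.0 per the submitters' processing notes), which subtracted background and normalised the dyes. The whole-series table holds such ratios with a median of 0 in every column; further steps are not stated. The deposited intensity columns, per the file headers, are processed and median signals of each spot, and the deposited 0 or 1 flags mark spots well above background, saturated or outlying. Columns were taken by sample title and multiplied to the log2 scale. At 946 of 42034 spots the table and the equal files disagreed in a Zeb column; 837 of these held the value of another spot of the same transcript name, and 131 were among the called spots. The 1417 control spots were left out.

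One limma 3.58.1 fit in R 4.3.3 over all 21 columns gave 7 line means with a shared spread (lmFit, eBayes), tested for Zeb1 minus Zeb2 and for each line against 0. P-values were Benjamini-Hochberg adjusted over the 30183 spots, and calls needed an adjusted p under 0.05 and an absolute log2 value of at least 1. Named spots were the 3 per set with the largest difference among those eligible. These fell in the same set without Zeb2 replicate 1 and had groups that do not overlap. By the flags at the named ID, they were well above background in both channels and never saturated in all 21 files. Only 2 spots raised in Zeb1 and lowered in Zeb2, and 1 lowered alike, were eligible. At A_11_P0000040469, A_11_P0000022579 and A_11_P0000033458 the values equalled those of other spots, whose flags were not used. The fit was tested on simulated data with independent noise in each column. No likeness within slides and no column apart from its line was simulated, so that test cannot bear on either. The comparison and its settings were chosen with earlier results of these data known. Slides came from the equal file, and for the other columns from the record. The number of arrays limits the precision.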

Additional observations from a re-analysis of the deposited data

Results flagged for a closer look

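At 61 spots the difference between the lines was called and both lines were called against control in opposite directions. Of these 61, the named spots A_11_P0000040469 and A_11_P000006333 had Zeb1 minus Zeb2 differences of 2.92 and 2.81. The named spots A_11_P0000030962, A_11_P0000030981 and A_11_P0000019986 had -2.70, -2.62 and -2.48. Line means also lay on opposite sides of control at all 1776 spots called in the difference alone, where neither line was called against control. The rule fixes this at the 1746 of them that were under 2-fold in both lines. Groups of 3 columns were too small for a check of single outlying values.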

How the results depend on the processing

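Counts are given in the order Zeb1 minus Zeb2, opposite, Zeb1 only, Zeb2 only and alike but unequal, against 6327, 61, 461, 3882 and 147. With a fit of the 6 Zeb columns they were 0, 0, 0, 0 and 0, with 9760 spots at an unadjusted limma p under 0.05. With slide as a random block they were also 0 throughout (7361 at an unadjusted p under 0.05), with 300 and 1051 spots called in Zeb1 and Zeb2 against control, in place of 3094 and 9152. Within the slide that holds both lines they were again 0 (6629 at an unadjusted p), with 477 called in Zeb2 against control. With slide as a fixed block they were 194, 16, 31, 127 and 15, and 2281 in Zeb2 against control. In the fixed-block and within-slide fits the Zeb2 mean is that of Zeb2 replicate 1 alone, with equal estimated differences. Their counts in Zeb2 against control thus describe that column and not the line. The scanner files as recorded gave 1, 0, 1, 0 and 0 with the deposited ratio (1036 and 1464 against control). With normexp and loess they gave 0 in each (225 at an unadjusted p; 75 and 89 against control). In those recorded files the differences at spots A_11_P0000022579, A_11_P000009743 and A_11_P0000023172 changed sign, to -0.12, 0.65 and 0.20 with the deposited ratio and -0.062, 0.42 and 0.27 with normexp. The cause of these changes was not tested.

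Scaling to equal spread gave 324 opposite, 2452 Zeb1-only and 542 unequal spots, with 8477 in Zeb1 against control. Requiring signal in all files left 35 opposite and 304 Zeb1-only spots of 20102 tested. With no minimum fold there were 649, 1083, 5972 and 537 in the 4 sets, and 7140 and 16281 against control. Leaving out 1 Zeb column at a time gave 3187 to 10202 for the difference, 26 to 179 opposite, 292 to 523 Zeb1-only, 1590 to 7390 Zeb2-only and 62 to 427 unequal spots. In 2 alternatives chosen after seeing the data, exchanging the replicate 1 titles gave 6, 1, 4, 1 and 0 (7326 spots at an unadjusted limma p under 0.05), and Zeb2 replicate 1 alone gave 1046, 19, 222, 448 and 44, with 2609 in Zeb2 against control.

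The replicate block gave 6220 spots for the difference. Deviations of same-numbered columns correlated at 0.139, 0.0567 and 0.118. The second is under 0.1, so the numbers were not taken to pair the columns, although 5 of 6 columns lay nearest their own number, a hint of pairing from the data. The 24 named spots were chosen to be called without Zeb2 replicate 1 and to have signal in all files at the named ID. At A_11_P0000040469, A_11_P0000022579 and A_11_P0000033458 the values equalled those of other spots. Those were well above background in both channels in 9, 0 and 11 of 21 files. Of the 24, 24 were called with the replicate block and with trend and robust variance. With equal spread 21 were, and with any other Zeb column left out 20 to 23. With Zeb2 replicate 1 alone 7 were, and with slide as a fixed block 1. In the 6-column fit, with slide as a random block, within the slide, in the recorded files by either processing and with the titles exchanged, 0 were.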
